A study of Mus musculus with 15 samples.

Results

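The genes described here encode integrins and the proteins of the focal adhesion, 38 of the 19297 genes measured. They were taken by symbol: a probe set had to carry exactly 1 gene symbol equal to a listed member, and where a gene had more than 1, the one of highest mean was used. Each of the 38 members was found, and Tns1 alone had several such probe sets (6). Expression was measured on arrays of total RNA from Myc-CaP cells, a line from a prostate tumour of a mouse with a Myc transgene, which all 5 groups therefore share. The groups, with 3 arrays each, received the vector without a gene (VEC), Twist1 in its wild-type form (WT), its forms AQA or DQD, or its form F191G, whose mutation lies in the Twist box. Cells of each group were transfected, selected and grown to confluence, and the labels do not say whether the replicates A, B and C came from separate cultures, so the p-values measure the spread between these arrays. Values are log2 intensities, and a difference of 1 is a doubling.

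Integrins are heterodimers of 1 alpha and 1 beta subunit that span the membrane and bind the extracellular matrix or receptors on other cells. Talin and kindlin bind the beta tail and switch the receptor on, the complex of integrin-linked kinase, PINCH and parvin joins it to actin, and kinases and scaffolds such as Src, Pyk2, paxillin and p130Cas relay the signal. Vinculin, alpha-actinin, filamin, zyxin and tensin carry the pull of actin filaments. In prostate epithelium these contacts hold cells on their basement membrane. Twist1 is a basic helix-loop-helix factor that binds E-boxes (CANNTG) and can drive epithelial-mesenchymal transition, in which cells leave that membrane.

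The design asks what wild-type Twist1 does against the vector and how the mutated forms differ. Correlations between arrays over all genes ran from 0.975 to 0.998, the lowest between WT A and DQD A, and from 0.992 without WT A. The labels give batch A (8 arrays) and batch B (7), which each hold arrays of all 5 groups: batch A has 2 arrays each of VEC, WT and AQA and 1 each of DQD and F191G, and batch B the reverse. Within a batch, most comparisons therefore rest on a single array on 1 or both sides, and such values are no check of stability. The Twist1 probe set was 0.36 higher in WT than in VEC (SE 0.147, limma adjusted p = 0.129) and no form passed the test against VEC, so the arrays do not check the labels by this gene. Of 8 measured markers of prostate epithelium, 2 (Krt8 and Hoxb13) had a mean above the median level of every array, and 6 (Krt18, Krt5, Krt14, Trp63, Epcam and Cdh1) lay below it. Also above it were Cd68 of 8 leukocyte markers, Ppbp of 4 platelet markers and Col1a1, Col1a2 and Pdgfra of 8 fibroblast markers, with 0 of 5 for endothelium and 0 of 4 for smooth muscle. Ppbp averaged 8.46 in VEC and 6.95 in WT (limma adjusted p = 0.0201), and Cd68 6.48 and 7.10 (0.0269), so these markers moved in the same comparison as Itga5, Itgb3, Cd44 and Parva. No other marker of either list was called there. Of the other leukocyte markers, Ptprc, Itgb2, Itgal, Itgam, Cd3e and Laptm5 averaged lower in WT than in VEC, against the sign of Cd68, and Tyrobp higher. The other platelet markers, Itga2b, Gp9 and Pf4, averaged lower in WT, as Ppbp did. The leukocyte list averaged 5.44 to 5.54 on the VEC arrays and 5.46 to 5.60 on the WT arrays, and the platelet list 6.16 to 6.38 and 5.60 to 5.95. The defining markers Ptprc, Gp9 and Pf4 lay below all array medians, and Itga2b, at a mean of 6.41, lay within their range. Between DQD and WT, limma called 3 of 8 leukocyte and 3 of 8 fibroblast markers, and 1 each of the prostate epithelium, platelet and endothelium lists. The part of these markers in the members' differences was not tested. In bulk RNA, fewer cells expressing a gene and less RNA per cell cannot be told apart.

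The promoters of Itga5 and Cd44 are shown because both genes were lower in WT than in VEC, and 1 holds an E-box while the other holds none. Each is the 250 bases before the gene's start on its own strand, from RefSeq with build GRCm38.p6. Itga5 lies on the minus strand with its window at chr15:103366792-103367041, and Cd44 on the minus strand at chr2:102901666-102901915. Capitals mark CANNTG, which reads as CANNTG on both strands.
Itga5: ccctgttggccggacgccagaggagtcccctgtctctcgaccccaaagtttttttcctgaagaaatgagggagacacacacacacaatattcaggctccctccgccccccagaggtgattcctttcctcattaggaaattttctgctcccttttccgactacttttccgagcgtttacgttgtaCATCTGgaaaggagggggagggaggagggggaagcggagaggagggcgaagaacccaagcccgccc
Cd44: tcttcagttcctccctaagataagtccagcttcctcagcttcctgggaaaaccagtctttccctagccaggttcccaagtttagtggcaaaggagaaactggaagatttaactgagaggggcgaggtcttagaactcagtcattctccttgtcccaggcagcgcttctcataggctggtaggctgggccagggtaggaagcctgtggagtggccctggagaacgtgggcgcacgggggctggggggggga
The Itga5 window holds 1 E-box, CATCTG, whose first base lies 66 bases before the start, and the Cd44 window holds 0. RefSeq windows were found for 30 of the 38 members (37 windows, as some genes have several starts), and 26 of these windows held CANNTG (70.3%), against 66.2% of 32851 windows of all genes. The version CATCTG (on the other strand CAGATG) was in 10.8% of the members' windows and in 14.4% of all windows. For CATATG the shares were 2.7% and 3.46%, for CAGCTG 13.5% and 13%, and for CACGTG 5.41% and 6.02%. Each of these is also counted under CANNTG. These are matches of letters and say nothing of binding.

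Most of the adhesion machinery was read above the array medians in these cells (6.31 to 6.42). Of the 38 members, 25 had a mean over the 15 arrays above the highest array median: the alpha subunits Itga3, Itga5, Itga6 and Itgav, the beta subunits Itgb1, Itgb3 and Itgb5, 6 of 7 activators and members of the ILK complex, all 4 kinases and scaffolds, 6 of 7 actin linkers, and the membrane partners Cav1 and Cd44. Below it were 7 of 11 alpha subunits (Itga1, Itga2, Itga4, Itga7, Itga8, Itga9 and Itga11), 4 of 7 beta subunits (Itgb4, Itgb6, Itgb7 and Itgb8), the kindlin gene Fermt1 and the tensin gene Tns3. The subunits above it can form laminin receptors (alpha 3 or alpha 6 with beta 1), the fibronectin receptor (alpha 5 with beta 1) and vitronectin receptors (alpha v with beta 3 or beta 5). Levels of different probe sets are not ranked here, since each depends on its own probes. Members spread over the 15 arrays by 0.17 (Tln1, talin 1) to 1.53 (Itgb3) with a median of 0.45, and their median SD within a group was 0.10. Ranges over 0.8 were found in 10 members.

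**Figure D1:**
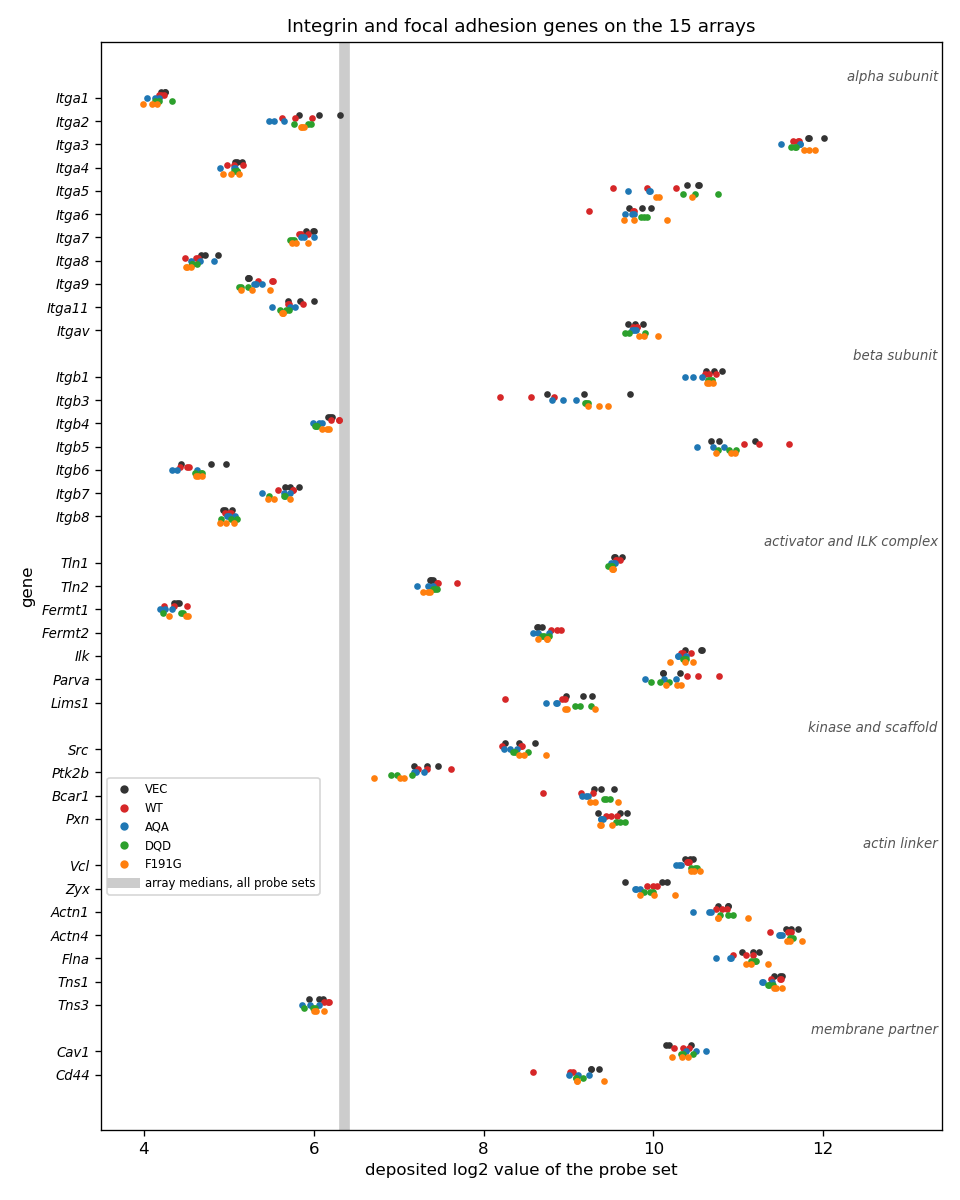
Level of each of the 38 members on each of the 15 arrays (log2 intensity, horizontal axis), ordered by role, with 1 point per array coloured by group and the array medians as a grey band. Most points of a gene lie close together, and 25 members lie right of the band.

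Few members passed the test in any comparison, and the shares were close to or below those of all genes. Between WT and VEC, 4 of 38 members were called changed (adjusted p under 0.05 in limma, adjusted over all genes), or 10.5%, against 12.8% of all genes: Itga5, Itgb3 and Cd44 fell (3, where 5.72% of genes fell) and Parva rose (1, where 7.06% rose). Between DQD and WT it was 7 of 38 (18.4%) against 24.5%: Itga5, Itgb3 and Bcar1 were higher in DQD (11.8% of genes) and Itga9, Itgb4, Parva and Ptk2b lower (12.8%). F191G and WT differed in 2 of 38 (5.26%) against 7.13%, with Itgb3 higher (3.18% of genes) and Ptk2b lower (3.95%) in F191G. Under an unadjusted p of 0.05 these 3 comparisons had 12 (31.6%), 10 (26.3%) and 10 (26.3%) members, against 27.6%, 40.8% and 27.7% of genes. A limma F-test over the 5 groups called 2 members, Itga5 (adjusted p = 0.0476) and Itgb4 (adjusted p = 0.044), or 5.26% against 10.1% of genes, with 15 members (39.5%) and 36.8% of genes under an unadjusted p of 0.05. Shares near or below the background are no result about the integrins and focal adhesion genes as a group.

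The calls were marginal. Without WT A, 0 members were called in limma between WT and VEC (7 with an unadjusted p under 0.05), 2 between DQD and WT (Itgb4 and Parva) and 0 between F191G and WT (2). Without DQD A, each of the 7 members lost its call between DQD and WT, with limma adjusted p from 0.0874 (Itgb4) to 0.16 (Bcar1). Nck2, Sorbs3, Cav2 and Rock1, adhesion genes described below that are no members, lost theirs too (0.0694 to 0.0818). Shares of all genes called in these refits are not given here, so the losses do not set the members apart from other genes. Over the 15 fits that each left out 1 array, the 4 calls between WT and VEC held in 3 (Cd44) to 7 (Parva).

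The other 7 comparisons called 0 members in limma. Of all genes, 0.881% were called between AQA and VEC, 0.814% between DQD and VEC, 0.0985% between F191G and VEC, 0.726% between AQA and WT, 0.0259% between DQD and AQA, 0.0104% between F191G and AQA and 0.00518% between F191G and DQD. In the same order, 12 (31.6%), 4 (10.5%), 4 (10.5%), 9 (23.7%), 8 (21.1%), 7 (18.4%) and 3 (7.89%) members had an unadjusted p under 0.05. Of all genes these shares were 15.7%, 24%, 11.7%, 25%, 14.6%, 11.1% and 9.05%. In AQA against VEC the members' share was thus above that of all genes, and 11 of the 12 were lower in AQA. WT arrays stand in the WT comparison with VEC and in those of the mutated forms with WT, so a gene that reads low on WT arrays enters several of them at once.

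**Figure D2:**
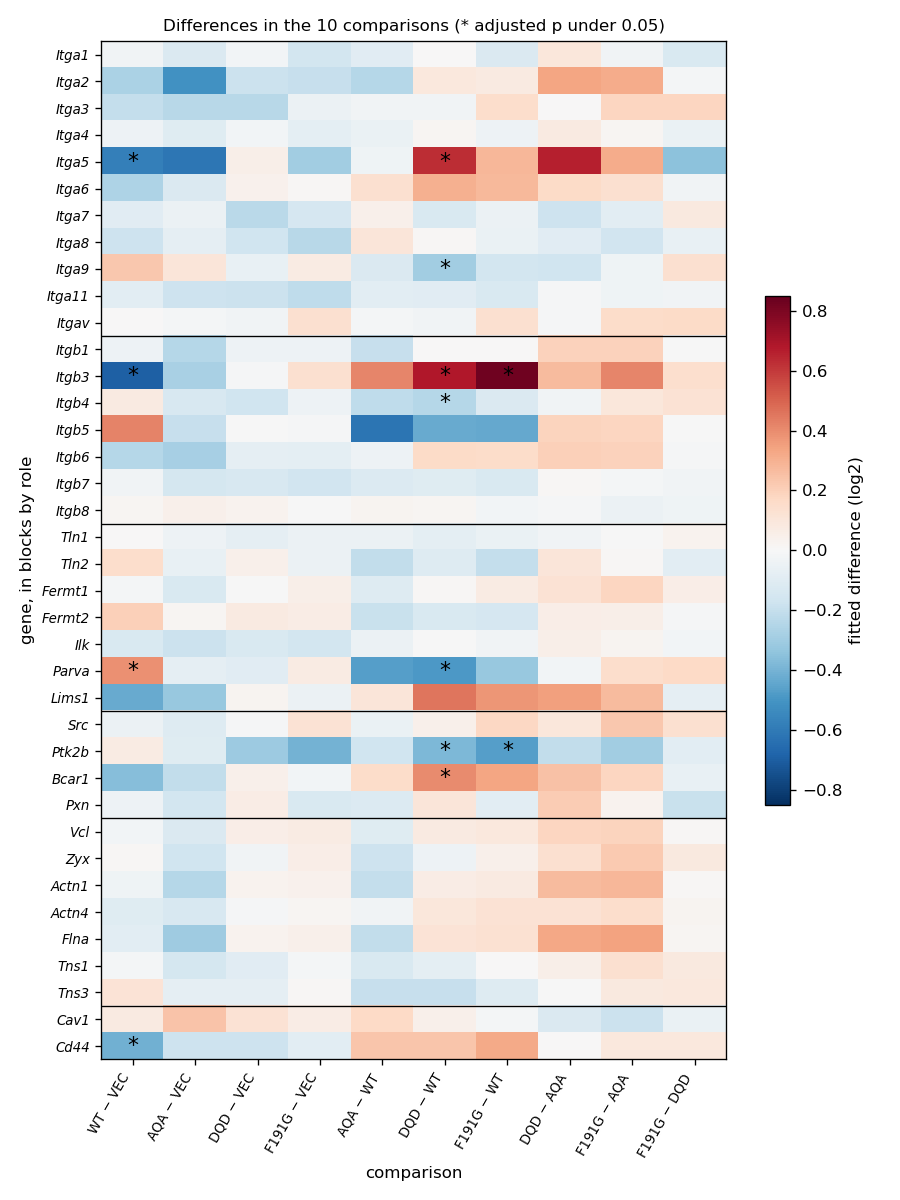
Log2 difference of each of the 38 members (rows, by role) in each of the 10 comparisons (columns), blue for lower and red for higher in the first group named, with an asterisk for a limma adjusted p under 0.05. The 13 asterisks are on 8 members and in 3 comparisons, and the column of AQA against VEC is blue for 34 of 38 members.

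Among the alpha subunits, Itga5, the partner of beta 1 in the main fibronectin receptor, moved most. It read 10.39, 10.52 and 10.53 (VEC arrays A, B and C), 9.52, 9.93 and 10.26 (WT), 9.70, 9.95 and 9.96 (AQA), 10.76, 10.35 and 10.49 (DQD) and 10.46, 10.03 and 10.07 (F191G). Values of other genes are given in the same order. The WT and AQA arrays all lay below the lowest VEC array, the DQD arrays lay on both sides of VEC, and WT C stood apart from WT A. Itga5 was 0.58 lower in WT than in VEC (-0.58, SE 0.171, 95% interval -0.95 to -0.21, limma adjusted p = 0.0436). AQA stood -0.61 from VEC (SE 0.171, -0.98 to -0.24) with an adjusted p of 0.111 in limma. DQD exceeded WT by 0.63 (SE 0.176, limma adjusted p = 0.025), and its difference from VEC was 0.05 with an interval of -0.33 to 0.43. F191G lay between, at -0.30 from VEC (-0.68 to 0.08) and 0.28 from WT (-0.10 to 0.66). These values leaned on WT A: without it the WT difference from VEC was -0.38 (adjusted p = 0.172) and the DQD difference from WT 0.45 (0.0675). Of the 15 fits that left out an array, the call of WT against VEC held in 4, and arrays of every group were among those whose loss ended it. The call of DQD against WT held in 13 and ended without WT A and without DQD A (limma adjusted p = 0.158 without DQD A). DQD A alone stood 1.03 above the 2 WT arrays of batch A, and the 2 DQD arrays of batch B stood 0.16 above WT C alone. WT was -0.73 from VEC in batch A (2 arrays each) and -0.27 in batch B (1 array each).

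Itga9, the alpha 9 subunit that binds tenascin-C with beta 1, lay below the array medians. It read 5.23, 5.24 and 5.23 (VEC), 5.51, 5.52 and 5.34 (WT), 5.31, 5.30 and 5.39 (AQA), 5.12, 5.14 and 5.22 (DQD) and 5.28, 5.14 and 5.48 (F191G). The WT arrays lay above the VEC and DQD arrays, and F191G spanned most of the range. DQD was lower than WT by 0.29 (-0.29, SE 0.084, limma adjusted p = 0.0275), while WT and VEC differed by 0.23 (adjusted p = 0.087). With each array centred on its median, DQD was -0.18 from WT (adjusted p = 0.124), and it was -0.39 in batch A (1 DQD array) and -0.16 in batch B (1 WT array).

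Itga2, of the collagen receptor alpha 2 beta 1, read 6.31, 5.83 and 6.06 (VEC), 5.62, 5.98 and 5.78 (WT), 5.53, 5.47 and 5.65 (AQA), 5.97, 5.76 and 5.93 (DQD) and 5.86, 5.85 and 5.89 (F191G). Each AQA array lay below each VEC array, and the means of the other forms lay between. AQA stood -0.52 from VEC (SE 0.116, limma adjusted p = 0.0602). It passed in 2 of the 15 fits that left out an array, without WT A and without VEC B, and its adjusted p over those fits ran from 0.0254 to 0.254. Itgav, the alpha v subunit shared by the vitronectin receptors, read 9.88, 9.70 and 9.78 (VEC), 9.76, 9.81 and 9.81 (WT), 9.75, 9.78 and 9.79 (AQA), 9.66, 9.90 and 9.71 (DQD) and 10.05, 9.89 and 9.83 (F191G). In F191G against VEC, Itgav had the largest difference upwards among the members, 0.14 (-0.03 to 0.31, limma adjusted p = 0.537). The F191G and VEC arrays of Itgav overlapped.

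Among the beta subunits, Itgb3, the partner of alpha v in a vitronectin receptor, spread more than any other member. Its VEC arrays read 9.72, 8.75 and 9.18, its WT arrays 8.19, 8.84 and 8.55, its AQA arrays 8.93, 8.81 and 9.08, its DQD arrays 9.23, 9.20 and 9.20, and its F191G arrays 9.47, 9.23 and 9.36. VEC B lay below WT B, so VEC and WT overlapped, while the DQD and F191G arrays all lay above the WT arrays. WT was lower than VEC by 0.69 (-0.69, SE 0.202, 95% interval -1.13 to -0.26, limma adjusted p = 0.0411). DQD was above WT by 0.68 (SE 0.207, limma adjusted p = 0.0327) and F191G by 0.83 (SE 0.207, limma adjusted p = 0.0385). Of AQA the difference from WT was 0.42, with an interval of -0.02 to 0.85. The call of WT against VEC held in 4 of the 15 fits that left out an array. Among the fits that ended it were those without VEC A (-0.43, adjusted p = 0.13) and without WT A (-0.52, 0.163). Without WT A the DQD and F191G differences from WT were 0.52 (0.0971) and 0.67 (0.0968). WT was -0.72 from VEC in batch A (2 arrays each) and -0.63 in batch B (1 array each). DQD was 0.72 from WT in batch A (1 DQD array) and 0.65 in batch B (1 WT array).

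Itgb4, the partner of alpha 6 in the laminin receptor of hemidesmosomes, moved little but tightly. It read 6.21, 6.19 and 6.17 (VEC), 6.30, 6.21 and 6.30 (WT), 6.07, 6.09 and 6.0 (AQA), 6.03, 6.04 and 6.01 (DQD) and 6.10, 6.16 and 6.18 (F191G). The AQA and DQD arrays lay below all VEC and WT arrays, and DQD was lower than WT by 0.24 (-0.24, SE 0.0548, limma adjusted p = 0.0146). AQA was -0.22 from WT (SE 0.0535, limma adjusted p = 0.0552), and DQD and AQA differed by -0.03 (-0.15 to 0.09). The probe set lies below the array medians, and with centring on them the DQD difference was -0.13 (adjusted p = 0.0804).

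Itgb5, which pairs with alpha v alone, read 11.20, 10.77 and 10.68 (VEC), 11.60, 11.07 and 11.24 (WT), 10.52, 10.84 and 10.70 (AQA), 10.76, 10.98 and 10.89 (DQD) and 10.73, 10.96 and 10.91 (F191G). The WT arrays lay above the arrays of the 3 mutated forms, but VEC A lay among them. No comparison passed the limma test: the differences were 0.42 for WT from VEC (adjusted p = 0.0825), and -0.62, -0.43 and -0.44 for AQA, DQD and F191G from WT (0.0548, 0.0575 and 0.0888). Itgb3 and Itgb5, of the vitronectin receptors named above, thus had opposite signs in WT against VEC, though the second did not pass. Itgb1, the common beta subunit, averaged 10.71 ± 0.10 (VEC), 10.67 ± 0.07 (WT), 10.47 ± 0.10 (AQA), 10.67 ± 0.03 (DQD) and 10.67 ± 0.04 (F191G; SD, n = 3), and AQA was -0.24 from VEC (limma adjusted p = 0.121).

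**Figure D3:**
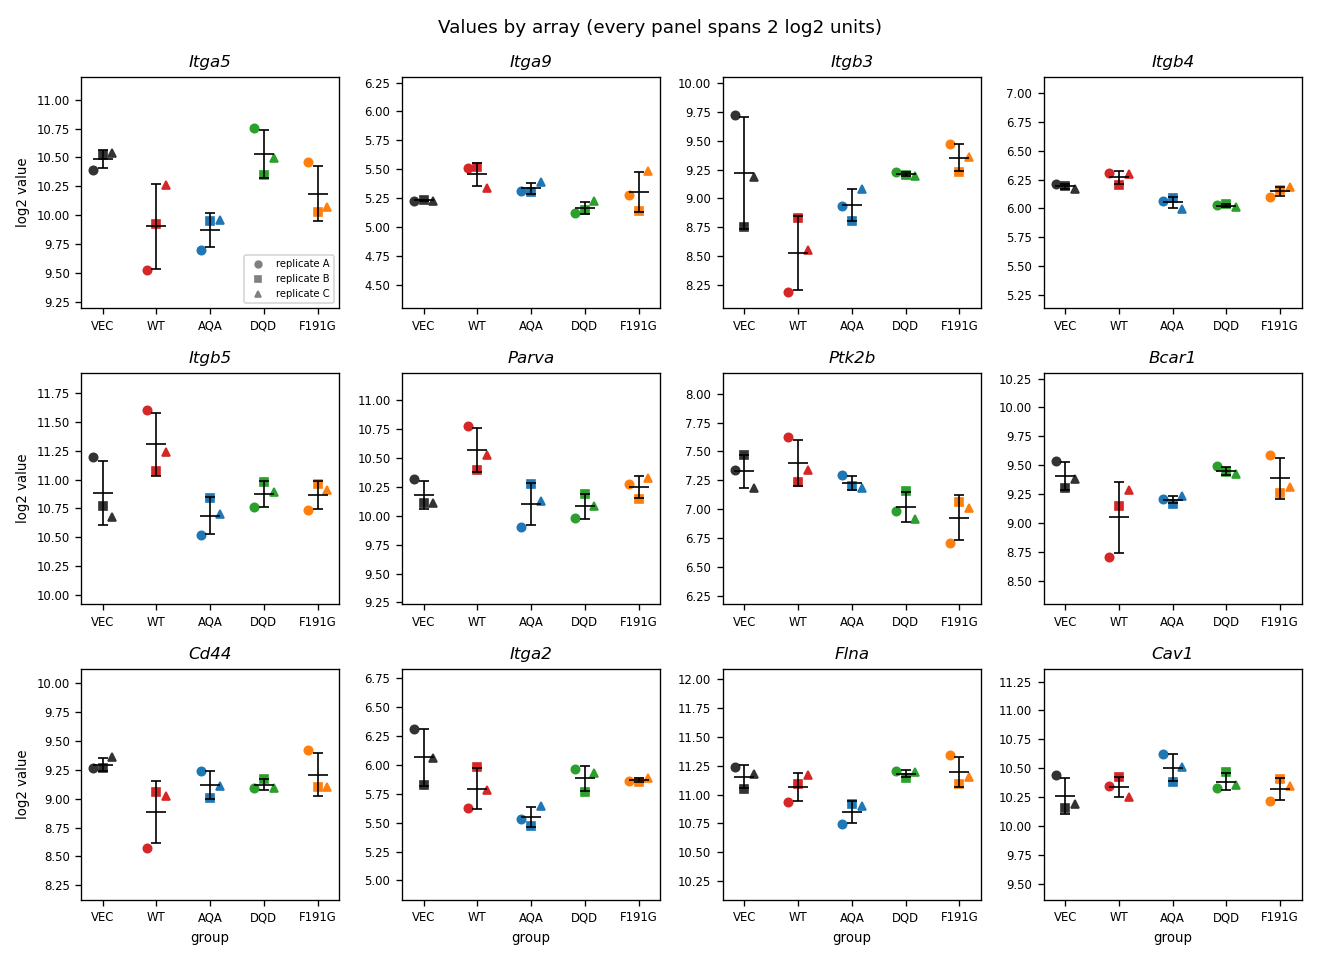
Log2 intensity of 12 members on each array, by group, with 1 marker shape per replicate letter and bars for the mean ± SD of 3 arrays. Each panel spans 2 log2 units, and the VEC and WT arrays of Itgb3 overlap while those of Itga5, Parva and Cd44 do not.

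Parva encodes alpha-parvin, which links integrin-linked kinase to actin. It read 10.32, 10.11 and 10.11 (VEC), 10.78, 10.40 and 10.53 (WT), 9.91, 10.27 and 10.13 (AQA), 9.98, 10.19 and 10.08 (DQD) and 10.27, 10.14 and 10.33 (F191G). All WT arrays lay above all arrays of the other groups. Parva was 0.39 higher in WT than in VEC (SE 0.114, limma adjusted p = 0.0421). That call held in 7 of the 15 fits that left out an array, and without WT A the difference was 0.28 (adjusted p = 0.175). DQD was lower than WT by 0.49 (-0.49, SE 0.117, limma adjusted p = 0.017), and without WT A by 0.39 (-0.39, 0.0425). AQA and F191G were -0.47 and -0.32 from WT (adjusted p = 0.055 and 0.0967 in limma). The PINCH gene Lims1, of the same complex, was -0.43 in WT from VEC (adjusted p = 0.103 in limma), and the kindlin-2 gene Fermt2 0.20 (0.052). Neither passed, and their signs differed. Ilk, Tln1 and Tln2 were not called in any comparison.

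Among kinases and scaffolds, Ptk2b (Pyk2, a kinase related to focal adhesion kinase) was lower in DQD and F191G than in WT. It read 7.34, 7.46 and 7.18 (VEC), 7.62, 7.23 and 7.34 (WT), 7.29, 7.20 and 7.18 (AQA), 6.98, 7.16 and 6.91 (DQD) and 6.71, 7.06 and 7.01 (F191G). The DQD and F191G arrays lay below all arrays of the other groups. From WT the differences were -0.38 in DQD (SE 0.122, limma adjusted p = 0.0399) and -0.47 in F191G (SE 0.122, limma adjusted p = 0.0426). From VEC they were -0.31 and -0.40 and did not pass (adjusted p = 0.154 and 0.243 in limma). Without WT A they were -0.27 (0.127) and -0.36 (0.11) from WT, and with median centring the DQD difference was -0.27 (0.112).

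Bcar1 encodes p130Cas, a scaffold that Src phosphorylates. It read 9.54, 9.30 and 9.38 (VEC), 8.71, 9.15 and 9.29 (WT), 9.21, 9.17 and 9.23 (AQA), 9.49, 9.44 and 9.42 (DQD) and 9.59, 9.26 and 9.31 (F191G). The 3 WT arrays lay below all VEC and DQD arrays, with WT A far below the other two. DQD exceeded WT by 0.40 (SE 0.132, limma adjusted p = 0.042), by 0.24 without WT A (0.111), by 0.56 in batch A (1 DQD array) and by 0.14 in batch B (1 WT array). WT was -0.36 from VEC (adjusted p = 0.0843 in limma). Src and Pxn were not called. Ptk2, the gene of focal adhesion kinase itself, had no probe set with its symbol alone and was not analysed here.

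None of the 7 actin linkers passed in any comparison. Tns3, a tensin gene below the array medians, came nearest, at -0.20 in DQD from WT (SE 0.0715, limma adjusted p = 0.0599), and was -0.19 in AQA from WT (adjusted p = 0.111). It read 6.06, 5.95 and 6.11 (VEC), 6.17, 6.12 and 6.19 (WT), 5.96, 6.06 and 5.87 (AQA), 6.01, 5.88 and 5.99 (DQD) and 6.0, 6.02 and 6.12 (F191G). The WT arrays lay above the AQA and DQD arrays, and with median centring the DQD difference was -0.09 (adjusted p = 0.386). Flna, the actin cross-linker filamin A, which binds beta tails and competes with talin, read 11.24, 11.05 and 11.18 (VEC), 10.93, 11.09 and 11.17 (WT), 10.74, 10.92 and 10.90 (AQA), 11.21, 11.14 and 11.20 (DQD) and 11.34, 11.09 and 11.15 (F191G). All AQA arrays lay below all arrays of the other groups. Flna in AQA was -0.30 from VEC (SE 0.086, limma adjusted p = 0.117), and DQD and F191G were 0.33 and 0.34 above AQA (adjusted p = 0.146 and 0.164). The alpha-actinin 1 gene Actn1 was 10.84 ± 0.07 in VEC and 10.60 ± 0.12 in AQA, a difference of -0.24 (limma adjusted p = 0.25). The 6 probe sets of the tensin gene Tns1 differed by -0.23 to -0.09 between AQA and VEC and by -0.01 to 0.13 between WT and VEC, and none was called in any comparison.

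Of the membrane partners, Cd44 was called between WT and VEC, and Cav1 was not called in any comparison. Cd44, the hyaluronan receptor, read 9.26, 9.26 and 9.36 (VEC), 8.58, 9.06 and 9.02 (WT), 9.24, 9.01 and 9.11 (AQA), 9.09, 9.18 and 9.09 (DQD) and 9.42, 9.10 and 9.10 (F191G). The WT arrays lay below all VEC arrays, and WT A lay below all others. Cd44 was 0.41 lower in WT than in VEC (-0.41, SE 0.123, limma adjusted p = 0.0453), or -0.25 without WT A (0.173). Cav1, caveolin 1 of the plasma membrane's caveolae, read 10.44, 10.15 and 10.19 (VEC), 10.34, 10.42 and 10.25 (WT), 10.62, 10.38 and 10.51 (AQA), 10.33, 10.47 and 10.35 (DQD) and 10.22, 10.41 and 10.34 (F191G). VEC A overlapped the AQA arrays, and the AQA difference of 0.25 (limma adjusted p = 0.213) was the largest upwards among the members in that comparison.

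The AQA arrays read slightly lower than VEC over most of the list, with no member past the test. Of 38 members, 34 (89.5%) had a mean below VEC in AQA, where 62% of all genes did, and their median difference was -0.14 against -0.04 over all genes. Of the 25 members above the array medians 23 lay below VEC, with a median of -0.16 against -0.002 over the 9511 genes above the array medians. The members' median difference from the VEC mean was -0.15 on AQA A, -0.11 on AQA B and -0.17 on AQA C, and on the WT, DQD and F191G arrays it ran from -0.07 to -0.01. Of the 15 arrays, AQA A was the lowest for 10 members and AQA C for 7, but AQA B for 1, and WT A for 8. These array counts were not made over all genes. The AQA and VEC arrays did not overlap in 17 members (44.7%), against 25.8% of all genes. Leaving out any array gave 33 or 34 members below VEC. Compared with AQA, 22 of the 25 were higher in F191G and 20 in DQD, comparisons that share the AQA arrays. The remaining 3 and 5 were lower, where 46.6% and 41.6% of the genes above the array medians were. The members are not independent of each other and share these arrays, so the counts are a description with no test.

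**Figure D4:**
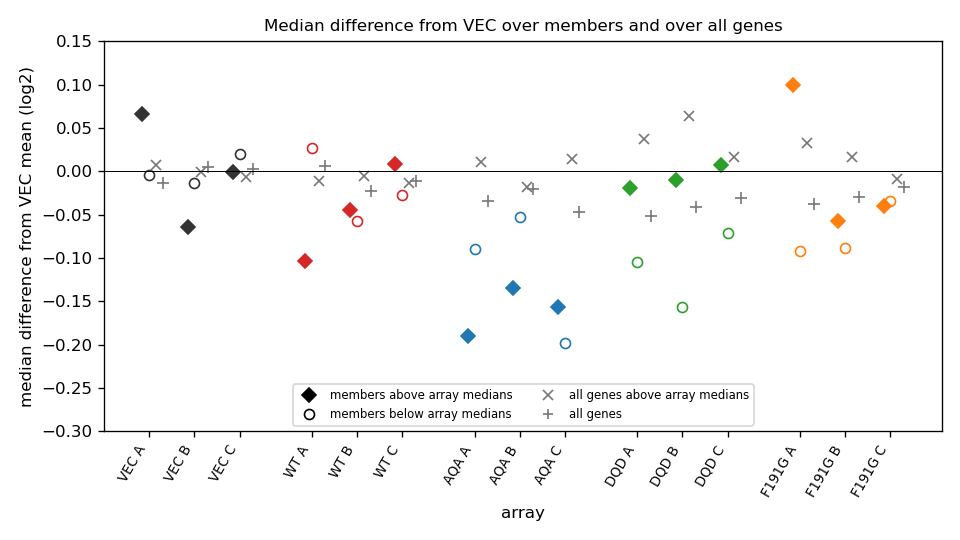
Median log2 difference from the VEC mean on each of the 15 arrays, for the members above and below the array medians and for all genes. The medians of the 25 members above the array medians lie lower on the 3 AQA arrays than on the other 12, while those of all genes stay near 0.

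Groups also did not overlap in 11 members between WT and VEC (31.6% of genes), 11 between DQD and VEC (34.8%), 5 between F191G and VEC (21.1%), 14 between AQA and WT (30%), 18 between DQD and WT (48.2%), 16 between F191G and WT (34.4%), 17 between DQD and AQA (27.3%), 16 between F191G and AQA (20.9%) and 7 between F191G and DQD (17.6%). WT A was the lowest array for 8 members and the highest for 7, and F191G A the highest for 11. Such counts were not made over all genes, so they are no trait of the members. Centring each array on its median moved the DQD difference from WT by 0.11 for every gene: 3885 genes were then higher and 926 lower in DQD, against 2272 and 2463 as deposited. With centring, 5 members were called higher in DQD (Itga5, Itgb3, Lims1, Bcar1 and Vcl) and 1 lower (Parva).

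Other genes of adhesion and its regulation were read from a list of 104, of which 95 were measured. Between WT and VEC, 8 of them rose and 6 fell (14.7%, against 12.8% of genes). Nck2, an adaptor that couples to PINCH and to actin, rose by 0.46 (8.08 ± 0.08 in VEC and 8.54 ± 0.10 in WT, SD, n = 3, limma adjusted p = 0.00562), Rhob, a small GTPase of endosomes and actin, by 0.87 (0.00746) and Sorbs3, the vinculin-binding vinexin, by 0.67 (0.00968). Vasp, which extends actin filaments, fell by 0.30 (8.56 ± 0.07 in VEC and 8.26 ± 0.06 in WT, limma adjusted p = 0.00992). These 4 calls held in 14 of the 15 fits that left out an array and ended without VEC C (adjusted p from 0.0513 to 0.0713). Each held in 7 of the 11 alternative settings that dropped no single array, which include each batch alone.

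In DQD against WT, 8 of the 95 were higher and 14 lower (23.2%, against 24.5%). Nck2 was -0.51 (limma adjusted p = 0.00759) and Sorbs3 -0.80 (0.00774), while Cav2, the partner of caveolin 1, was 0.63 higher (0.00865) and Rock1, a kinase that raises actomyosin pull, 0.39 higher (0.0107). These calls ended without DQD A alone (adjusted p from 0.0694 to 0.0818). Each held in 8 of the 11 settings that dropped no single array. F191G and WT differed in 1 gene upwards and 7 downwards (8.42%, against 7.13%): Cav2 by 0.52 (limma adjusted p = 0.0312), and Svil, which encodes the actin-binding supervillin, by -0.39 (0.0197), Sorbs3 by -0.58 (0.0318) and Rhob by -0.66 (0.0361). Over the 11 settings that dropped no single array, Svil and Sorbs3 kept their call in 8, Cav2 in 7 and Rhob in 6. Over the 15 fits that left out an array, Svil kept its call in 13, Cav2 and Sorbs3 in 11 and Rhob in 7. Svil lost it without F191G A (adjusted p = 0.162) and without F191G C (0.0534), Cav2 and Sorbs3 without WT A and without each F191G array, and Rhob without WT A, F191G A, B and C, AQA A and C, and DQD A and C. Between AQA and WT 2 of the 95 passed (2.11%, against 0.726%): Cav2 was higher by 0.58 (0.0455) and Cd47, an integrin-associated membrane protein, lower (-0.58, limma adjusted p = 0.0455). Both lost the call in 12 of the 15 fits that left out an array, WT A among them. Between AQA and VEC 1 gene passed (1.05%, against 0.881%), the tetraspanin Cd151, a partner of laminin-binding integrins (10.32 ± 0.05 in VEC and 9.98 ± 0.08 in AQA, -0.34, limma adjusted p = 0.0348), and it lost the call in 9 of those fits. In the other 5 comparisons 0 of the 95 passed in limma, with 7 to 19 under an unadjusted p of 0.05. These were 16.8% (DQD and VEC), 7.37% (F191G and VEC), 20% (DQD and AQA), 15.8% (F191G and AQA) and 9.47% (F191G and DQD). Of all genes the shares were, in the same order, 24%, 11.7%, 14.6%, 11.1% and 9.05%.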

How the data were processed

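The deposited log2 values of 23811 probe sets were made with RMA, per the submitters' processing notes, which also name limma. Their versions, and the form of a further normalization by Twist1 that the design text names, are not given in the sources read. Detection calls were not used. Precision is limited by the number of arrays. The platform annotation pairs 20852 probe sets with 1 symbol and 1440 with several, and does not list 1519. The gene identifier matched RefSeq for 20805, and 0 symbols changed. Of the 19297 genes, 846 had several probe sets, and the one with the highest mean was used.

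Group and batch were fixed terms in limma 3.58.1 (R 4.3.3), fitted to all 15 arrays with 9 residual and 3.93 prior degrees of freedom. P-values are two-sided and were adjusted over all genes after Benjamini and Hochberg, with a threshold of 0.05. The batch coefficient was at most 5e-09 for any gene with groups in the model, so the deposited values hold no batch difference beyond the groups. The batch term was kept for its degree of freedom, and values within batches are after whatever removed that difference.

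Values on every array are given for members called in a comparison or by the F-test, the largest difference in each direction for each form against VEC, and the 8 smallest F-test p-values. Of other pathway genes, at most 4 called genes with the smallest p per comparison are named. Lims1, Fermt2, Itgb1, Actn1 and Tns3 fall outside that rule and were chosen after their values were seen. The members and lists were chosen with earlier results of these data known. The code of the model was run on simulated data with independent noise between arrays, which does not bear on the calls made here. Figures were drawn with matplotlib 3.10.9. Alternatives were no batch term, the replicate letter as a block, quantile normalization again, median centring, a filter on dim genes, array weights, a variance trend, a Twist1 covariate, only the arrays compared, each batch alone, all probe sets, and each array left out.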

Additional observations from a re-analysis of the deposited data

How the results depend on the processing

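Calls of members depended on the setting. Counts as reported stand in parentheses. Counts of members in this section are given without the share of all genes called in the same fit, save for DQD against WT on the compared arrays alone. They show how calls moved and are no result about the members as a group. For WT against VEC (4), the count was 0 with the replicate block, the Twist1 covariate, the compared arrays alone or either batch alone, and 2 with median centring, and 3 to 5 under the other settings. DQD against WT (7) gave 4 with the replicate block or quantile normalization, 0 with the compared arrays or batch A alone, and 1 in batch B, and 6 to 10 under the other settings, of which the most came with array weights or no batch term. In DQD against WT, Itga5 and Parva kept their call in 8 of 11 settings that dropped no single array, Itgb3 and Ptk2b in 7, Itgb4 in 6, Bcar1 in 5, and Itga9 in 4 of 10. F191G against WT (2) gave 0 with the replicate block, array weights, the Twist1 covariate, the compared arrays or either batch alone, and 1 with centring. Array weights gave 6 for AQA against VEC, 2 for DQD against VEC, 10 for AQA against WT and 9 for DQD against AQA, where 0 are reported. Leaving out the batch term gave 1, 1 and 3 for the first 3 of these, and leaving out the dimmest 33.3% of genes 3 for AQA against WT. The F-test (2) gave 10 without batch, 14 with weights, 1 with quantile normalization or centring, and 0 with the replicate block, the Twist1 covariate or a batch alone. Within a batch, 1 or both sides of all comparisons but those among VEC, WT and AQA in batch A and of F191G with DQD in batch B are single arrays, so these counts say nothing of stability. Under limma settings with 0 calls where members were reported, 3 to 11 members had an unadjusted p under 0.05. Since the deposited values hold no batch difference, the fit without batch counts 1 degree of freedom too many.

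Leaving out 1 array gave 0 to 6 members for WT against VEC, 0 to 2 for AQA against VEC, 0 to 3 for AQA against WT, 0 to 8 for DQD against WT, 0 to 4 for F191G against WT, 0 to 1 for DQD against AQA and 0 to 6 for the F-test, and 0 in the other 4 comparisons. Over the 15 such fits, DQD against WT kept its call for Itgb4 and Parva in 14, Itga5 in 13, Itga9 in 11, Itgb3 and Ptk2b in 10 and Bcar1 in 5. WT against VEC kept Parva in 7, Itga5 and Itgb3 in 4 and Cd44 in 3, and F191G against WT kept Itgb3 in 4 and Ptk2b in 3. The sign of 1 difference turned: Bcar1 in F191G against WT was 0.34 and not called, and -0.0048 in batch B, where WT is 1 array. Over all genes, DQD against WT called 4735 as reported and 0 with the compared arrays alone. Deviations from group means of same-letter arrays correlated at -0.85 to 0.22, with 6 of 30 pairs over 0.1. Those of different-letter arrays correlated at -0.43 to 0.70, with 23 of 60 pairs over 0.1. Letter A lies wholly in batch A and letter C in batch B, and the deposited values hold no batch difference. These correlations therefore cannot show whether the letters pair the arrays. The causes of the moves of calls between settings were not tested.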
